A study of Rattus norvegicus with 44 samples.

Results

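The 9 genes described here encode proteins that join the 2 sides of a synapse, namely the neurexins Nrxn2 and Nrxn3, the neuroligins Nlgn1, Nlgn2 and Nlgn3, and the postsynaptic scaffolds Dlg4, Shank1, Shank2 and Shank3. They were taken by gene name, with earlier results of these data known, from the 18347 gene identifiers of the deposited table, in which they occupy 35 of 24694 rows. The values of all rows of a gene were added up. All 9 were among the 15598 genes that passed the filter on low values, a mean of at least 5 over the rats.

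The tissue was the dentate gyrus of the hippocampus, taken from a single hemisphere of 44 male F344 rats, with 1 library for each rat. Young rats (YNG, n = 10) were 6 months old and were listed with vehicle. Older rats were treated by oral gavage from 12 months of age and were about 18 months old at the end of the study, according to its methods, although the deposited labels give their age as 12 months. They received vehicle (AV, n = 12), the BCL2 family inhibitor ABT-263 at 12 mg/kg (AA, n = 11), or the kinase inhibitor dasatinib at 1.2 mg/kg with the flavonoid quercetin at 12 mg/kg (ADQ, n = 11). Treatment ran in 8 cycles of 5 days, a final round followed the behavioural tests, and tissue was taken 2 weeks after it. The comparisons ask how these transcripts differ with age and between older rats with and without each senolytic, a drug that clears senescent cells.

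Neurexins sit in the presynaptic membrane and bind neuroligins in the postsynaptic membrane across the cleft. Nlgn1 is found mainly at excitatory synapses, Nlgn2 mainly at inhibitory synapses, and Nlgn3 at both. At excitatory synapses the tails of neuroligins bind PSD-95, the product of Dlg4, and the SHANK proteins form the deeper layer of the scaffold that ties receptors to the actin cytoskeleton. In the dentate gyrus such synapses receive the perforant path input from the entorhinal cortex onto granule cells.

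RefSeq promoter windows on the GRCr8 build, another build than the rn6 of the deposited table, were at hand for 5 of the 9 genes. The 250 bases before the start are shown for Nlgn2, Nlgn3 and Shank3 because their levels moved together from rat to rat, as given further on. The window of Nlgn2 is chr10:55056579-55056828 on the minus strand, that of Nlgn3 is chrX:70469228-70469477 on the plus strand, and that of Shank3 is chr7:122448073-122448322 on the plus strand. Each is written 5′ to 3′, and capitals mark the GC box GGGCGG or its complement.
Nlgn2: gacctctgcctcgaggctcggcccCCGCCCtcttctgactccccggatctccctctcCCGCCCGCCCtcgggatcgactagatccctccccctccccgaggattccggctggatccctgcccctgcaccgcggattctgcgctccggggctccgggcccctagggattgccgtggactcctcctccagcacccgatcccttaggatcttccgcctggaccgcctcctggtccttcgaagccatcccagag
Nlgn3: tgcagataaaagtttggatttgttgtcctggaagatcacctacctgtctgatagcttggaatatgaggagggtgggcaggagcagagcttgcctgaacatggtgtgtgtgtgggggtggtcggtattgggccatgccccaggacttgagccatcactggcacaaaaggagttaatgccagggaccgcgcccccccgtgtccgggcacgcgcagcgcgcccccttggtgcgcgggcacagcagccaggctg
Shank3: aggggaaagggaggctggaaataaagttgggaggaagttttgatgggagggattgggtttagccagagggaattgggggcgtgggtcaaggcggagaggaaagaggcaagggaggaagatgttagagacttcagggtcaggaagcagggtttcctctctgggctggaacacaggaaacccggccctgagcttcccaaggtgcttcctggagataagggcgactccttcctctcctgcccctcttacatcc
Nlgn2 held 3 GC boxes, the last pair overlapping, and Nlgn3 and Shank3 held none. A GC box on either strand was present in 30.5% of the 33469 windows of this length. Nlgn2 had 20 CpG dinucleotides, more than the count in 83.3% of all windows, while Nlgn3 had 11 and Shank3 had 4 against a median of 5.0. Nlgn1 and Dlg4, the other genes with a window, held no GC box, 10 and 5 CpG dinucleotides respectively. Neither TGACGTCA nor TATAAA was found on either strand in any of the 5 windows, against 1.59% and 12.9% of all windows. These matches describe letters in the window and were not tested against the expression values.

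Deposited values are reads estimated per row and divided by a size factor per library, and their totals ranged from 14297964 to 20579982 over the rats. The depth read back from the most frequent low value of each library lay between 10166691 and 24328425 reads, with a median of 16320203. Granule cell markers were present in every rat except Tdo2, whose median was 0, which matches the tissue on the label. Summed markers of neighbouring CA1 pyramidal cells ran from 1835 to 42741. AA rat 4107 and AV rat 3989 had the highest sums, 42741 and 28330, and summed granule cell markers of 3171 and 6559 against group medians of 12560 and 11520. The next highest CA1 sums were 25334 and 20721 in AV rats 3890 and 4571 and 18944 in AA rat 3996. Granule cell sums in these rats were 11050, 8220 and 5986. In whole tissue, fewer cells of a type and less RNA per cell cannot be told apart. The rats fall into an early number series (a, names up to 4011 and V1 to V6, n = 22) and a late number series (b, n = 22). The labels name no batch, but the called differences of the 9 genes are also given within each series. Averaged over groups, 19.2% of tested genes differed between the series (unadjusted limma p under 0.05). Of the 9, Nrxn2 and Shank1 did, by 0.16 and -0.18 in log2 (b minus a, p = 0.0359 and 0.0492, adjusted p = 0.221 and 0.259). A comparison differed between the series at that p in 21.8%, 17.3% and 8.89% of genes for AV, AA and ADQ against YNG. The share was 4.71%, 4.03% and 4.37% for AA against AV, ADQ against AV and AA against ADQ.

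Each comparison was tested with limma on log2(value + 1), and a gene was called at an unadjusted two-sided p under 0.05, the threshold of the study, with the Benjamini-Hochberg adjusted p over all 15598 genes beside it. No member passed an adjusted p of 0.05 in any of the 6 comparisons in this fit. Some did against YNG in other fits, with 3, 3 and 5 members in AV, AA and ADQ under array weights, which count noisy libraries less. The smallest adjusted p were 0.0649, 0.0773 and 0.0996 in the comparisons of ADQ, AV and AA with YNG. Among all genes, 2.35%, 3.85% and 7.08% passed the adjusted threshold in AV, AA and ADQ against YNG, and none did in the comparisons among older groups. All differences below are on the log2(value + 1) scale with their standard error.

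**Figure D1:**
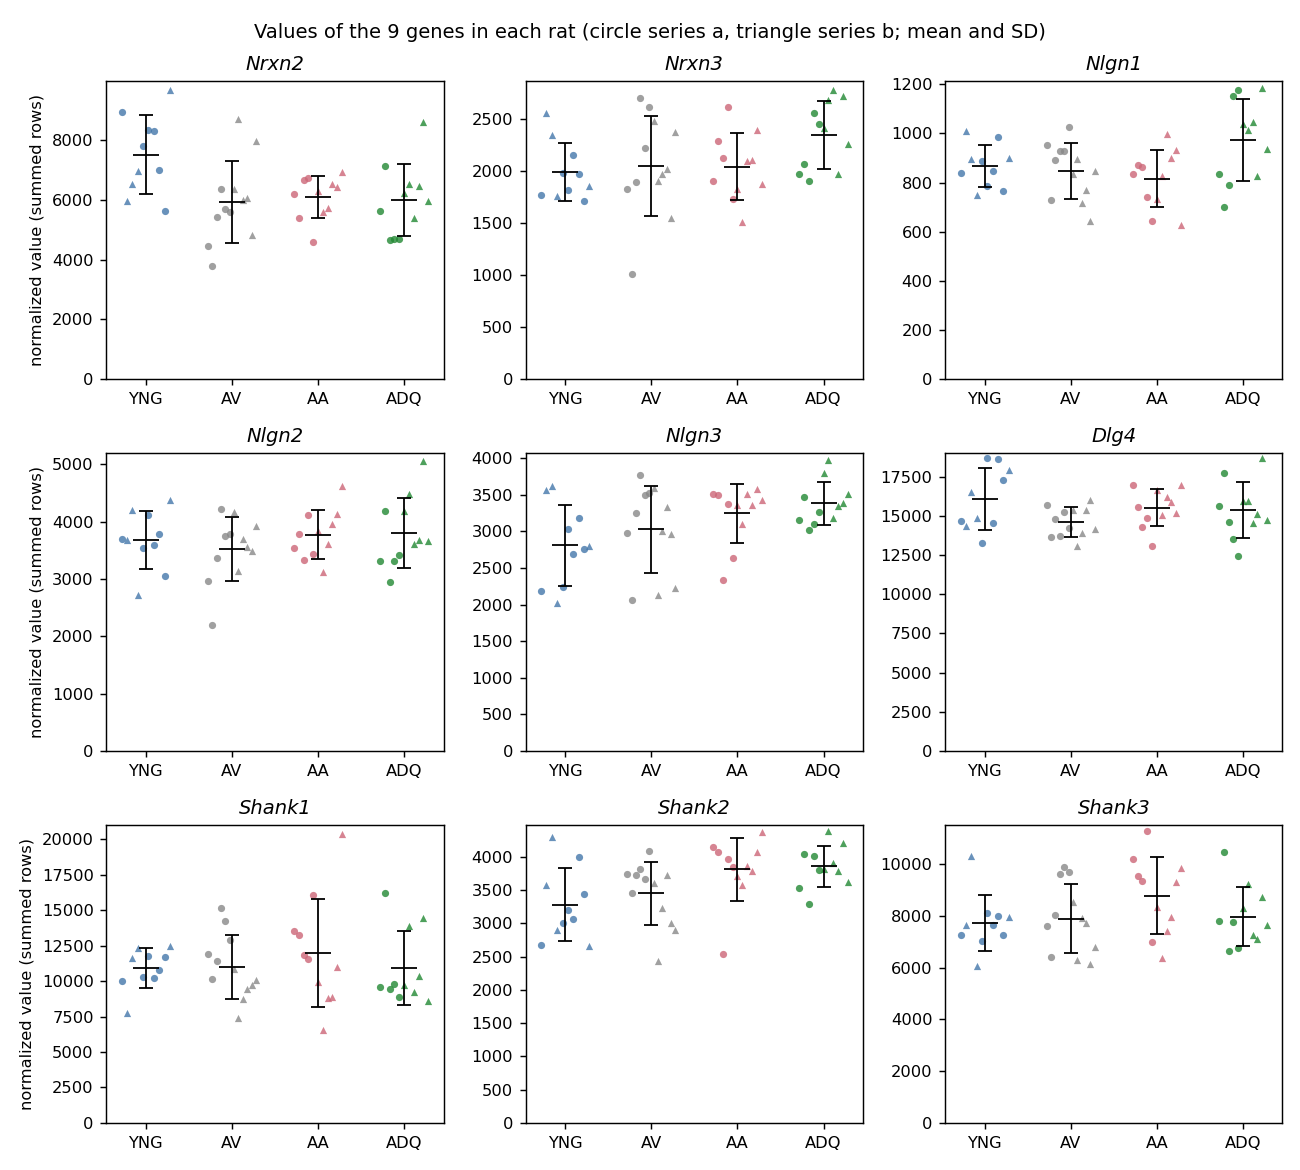
Normalized value of each of the 9 genes (vertical axes, rows summed, from 0) in each rat, by group, with circles for series a, triangles for series b, and bars for the mean and SD. Nrxn2 lay lower in most AV, AA and ADQ rats than in YNG rats, and the ranges of the groups overlapped for every gene.

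The transcript of Nrxn2 (ENSRNOG00000021103) was lower in every older group than in young rats. Its value ran from 5621 through a median of 7389 to 9672 in YNG rats, and from 3776 through 5847 to 8694 in AV rats. In AA rats the lowest, median and highest values were 4594, 6308 and 6931, and in ADQ rats 4650, 5966 and 8609. The ranges overlapped, but 10 of 12 AV, 11 of 11 AA and 10 of 11 ADQ rats lay below the YNG median, and 5, 3 and 4 of them lay below the lowest YNG rat. Nrxn2 fell by 0.36 ± 0.11 in AV (p = 0.00287, adjusted p = 0.0773), a fold of 0.782. The difference from YNG was -0.29 ± 0.12 for AA rats (p = 0.0156, adjusted p = 0.105) and -0.33 ± 0.12 for ADQ rats (p = 0.00634, adjusted p = 0.0649). Among the older groups the Nrxn2 difference was 0.07 for AA against AV, with a 95% interval from -0.15 to 0.29, and 0.03 for ADQ against AV, from -0.20 to 0.25.

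The Nrxn2 difference from YNG was larger in the early number series in each older group, but the series were not told apart at the threshold. In series a the mean was 7655 ± 1187 in 6 YNG rats and 5208 ± 933 in 6 AV rats, and in series b it was 7281 ± 1646 in 4 YNG rats and 6647 ± 1425 in 6 AV rats. Within series a Nrxn2 differed by -0.56, -0.37 and -0.52 in AV, AA and ADQ, with unadjusted limma p of 0.000632, 0.0204 and 0.00189. Within series b the differences were -0.13, -0.20 and -0.15, with p of 0.389, 0.205 and 0.345. The test of the difference between the series gave p of 0.0512, 0.432 and 0.0916 for the 3 comparisons, and adjusted p of 0.232, 0.737 and 0.638. Scaling to library totals moved the median of all genes by 0.10 to 0.15 in the older groups against YNG, and Nrxn2 then differed by -0.25 (p = 0.0132) in AV, -0.14 (p = 0.169) in AA and -0.19 (p = 0.066) in ADQ. Relative to that median the Nrxn2 differences were -0.35, -0.29 and -0.33.

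Nrxn3 (ENSRNOG00000047574), the other neurexin described here, was highest in ADQ rats. Its lowest, median and highest values were 1714, 1914 and 2559 in YNG and 1014, 1998 and 2703 in AV. The same values were 1510, 2101 and 2620 in AA and 1909, 2419 and 2778 in ADQ. The groups overlapped, and 10 of 11 ADQ rats lay above the YNG median and 8 of 11 above the AV median. Nrxn3 rose in ADQ by 0.23 ± 0.11 against YNG (p = 0.0477, adjusted p = 0.173) and by 0.22 ± 0.11 against AV (p = 0.0467, adjusted p = 0.528). AV and AA differed from YNG by 0.01 and 0.03. With number series as a covariate neither Nrxn3 difference in ADQ was called, at p = 0.0587 against YNG and p = 0.0503 against AV, and the call against YNG was lost in 20 of 44 fits that left out 1 rat. Within series a and b the Nrxn3 differences were 0.20 and 0.22 against YNG (p = 0.269 and 0.136) and 0.16 and 0.27 against AV (p = 0.38 and 0.0423). AA against ADQ, not called over all rats, differed by -0.04 in series a and -0.33 in series b (p = 0.817 and 0.0161), and the test between the series gave p = 0.213. AV rat 3989 had the lowest Nrxn3 of all rats, 1014 against a second lowest AV value of 1547, and without it the difference of ADQ from AV was 0.14 (p = 0.149).

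Across rats, after the means of group and series were removed, Nrxn3 was lower where microglial, oligodendrocyte, endothelial and CA1 pyramidal markers were higher. Over 44 rats, Nrxn3 had a Pearson r of -0.61 and a Spearman rho of -0.59 with the mean of 6 microglial markers (permutation p = 0.00059 and 0.00042, adjusted p = 0.0077 and 0.012 over 90 relations of 9 genes with 10 marker lists). Its r with 6 oligodendrocyte markers was -0.57 (rho = -0.49, permutation p = 0.0006 and 0.0028, adjusted p = 0.0077 and 0.025). Without the 2 rats farthest from the median of the marker mean, these r were -0.54 and -0.58. For 4 endothelial markers the Nrxn3 r was -0.61 (rho = -0.44, adjusted p = 0.016 and 0.057), and -0.37 without the 2 farthest rats. For 5 CA1 markers it was -0.48 (rho = -0.50, adjusted p = 0.015 and 0.016). Its r with granule cell and with CA3 and mossy cell markers was above 0, at 0.42 and 0.40 (adjusted p = 0.093 and 0.07). Nrxn2 had r = 0.50 with 6 CA3 and mossy cell markers (rho = 0.52, permutation p = 0.0011 and 0.0014, adjusted p = 0.011 and 0.016). With 6 astrocyte markers its r was -0.45 (rho = -0.36, permutation p = 0.0039 and 0.022, adjusted p = 0.025 and 0.091). Without their 2 farthest rats these Nrxn2 r were 0.52 and -0.30. The part of the marker lists in the group differences was not tested.

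Nlgn1 (ENSRNOG00000032576), which acts in excitatory synapses, was highest in ADQ rats and lowest in AA rats by group mean. Its value ran from 751 through a median of 869 to 1009 in YNG, and from 643 through 869 to 1027 in AV. It ran from 627 through 837 to 996 in AA, and from 702 through 1016 to 1185 in ADQ. All 11 AA rats lay below the ADQ median, yet only 2 lay below the lowest ADQ rat, and the ranges overlapped. The difference of AA from ADQ was -0.25 ± 0.09 (p = 0.00772, adjusted p = 0.981), and ADQ was above AV by 0.19 ± 0.09 (p = 0.0334, adjusted p = 0.498). Against YNG the differences were -0.04, -0.10 and 0.15 for AV, AA and ADQ, with p of 0.67, 0.302 and 0.101.

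The ADQ rise of Nlgn1 over AV was called in series b and not in series a. In series b the mean was 785 ± 93.0 in 6 AV rats and 1008 ± 120 in 6 ADQ rats, a difference of 0.36 (limma p = 0.00428). In series a it was 911 ± 98.7 in 6 AV rats and 932 ± 219 in 5 ADQ rats, a difference of 0.01 (limma p = 0.939). The test between the series gave p = 0.048 and an adjusted p of 0.961, where 4.03% of all genes had an unadjusted p under 0.05. The difference between AA and ADQ had the same direction in both series, -0.21 in series a (p = 0.129) and -0.28 in series b (p = 0.0227).

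Of the 19 relations with marker lists that passed the adjusted threshold, 6 were those of Nlgn1. Over 44 rats its r with 5 CA1 pyramidal markers was -0.66 (rho = -0.63, permutation p = 1e-05 and 4e-05, adjusted p = 0.00045 and 0.0036), and 1e-05 is the smallest value these permutations can give. Leaving out the 2 rats farthest from the median of those markers gave r = -0.59. The r of Nlgn1 was -0.65 with oligodendrocyte markers and 0.55 with 6 granule cell markers (permutation p = 1e-05 and 0.00036, adjusted p = 0.00045 and 0.0065). Without their 2 farthest rats these were -0.56 and 0.40. The rats with the lowest Nlgn1 in AA included rat 4107, at 627. Without rats 4107 and 3989, the 2 highest in CA1 markers, the difference of ADQ from AV was 0.17 (p = 0.0507) and that of AA from ADQ was -0.21 (p = 0.0206).

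Nlgn2 (ENSRNOG00000015430), the neuroligin of inhibitory synapses, was not called in any comparison. Its lowest, median and highest values were 2728, 3696 and 4375 in YNG, 2199, 3633 and 4215 in AV rats, 3117, 3779 and 4629 in AA rats and 2954, 3663 and 5060 in ADQ rats. The groups overlapped. Against YNG the difference was -0.07 for AV, with a 95% interval from -0.25 to 0.12, while AA and ADQ differed by 0.04 and 0.05. ADQ and AA lay 0.12 and 0.11 above AV, with p of 0.209 and 0.231.

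Nlgn3 (ENSRNOG00000003812), present at both kinds of synapse, was higher in both senolytic groups than in young rats. Its value ran from 2018 through 2780 to 3612 in YNG and from 2057 through 3125 to 3762 in AV. In AA the lowest, median and highest were 2334, 3379 and 3582, and in ADQ 3020, 3349 and 3974. All 11 ADQ rats and 9 of 11 AA rats lay above the YNG median, and 9 of 12 AV rats did. Nlgn3 rose by 0.22 ± 0.10 in AA (p = 0.0375, adjusted p = 0.16) and by 0.29 ± 0.10 in ADQ (p = 0.00772, adjusted p = 0.0691), a fold of 1.22. In AV the difference was 0.11 ± 0.10 (p = 0.306), and the difference of ADQ from AV was 0.18 (p = 0.0701), so treated and vehicle rats were not told apart at the threshold.

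Against YNG the rise of Nlgn3 in AA and ADQ had a similar size in both number series. It was 0.19 and 0.21 for AA, and 0.27 in either series for ADQ, with unadjusted p between 0.0719 and 0.194 in these smaller sets. AV differed from YNG by 0.23 in series a and -0.05 in series b (limma p = 0.1 and 0.741). ADQ differed from AV by 0.04 in series a and 0.32 in series b (limma p = 0.804 and 0.0243). AA differed from AV by -0.04 and 0.26 (limma p = 0.77 and 0.0602). The test between the series gave p of 0.175, 0.159 and 0.132 for these 3 comparisons. Removing YNG rat V12, the lowest at 2018, left a difference of 0.17 (p = 0.101) for AA against YNG. Nlgn3 was lower in rats with higher microglial markers, with r = -0.65 and rho = -0.59 over 44 rats (permutation p = 0.0003 and 0.00054, adjusted p = 0.0065 and 0.012), and r = -0.54 without the 2 farthest rats. Of 6 microglial markers, 1 was called lower and none higher in ADQ against YNG, and 1 was called higher in AA against YNG. The summed microglial markers ran from 3219 to 5663 in YNG, 3560 to 6006 in AA and 3424 to 4749 in ADQ, and their part in the difference was not tested.

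Dlg4 (ENSRNOG00000018526) encodes PSD-95, which anchors glutamate receptors and neuroligins. Its lowest, median and highest values were 13288, 15686 and 18688 in YNG, 13050, 14494 and 16036 in AV rats, 13094, 15578 and 16992 in AA rats and 12432, 15138 and 18700 in ADQ rats. It was not called in any comparison, and the group ranges overlapped, with 10 of 12 AV rats below the YNG median. The difference of AV from YNG was -0.13 ± 0.07 (p = 0.0555, adjusted p = 0.247), which is next to the threshold and crosses it when any of 9 rats is left out. AA and ADQ differed from YNG by -0.04 and -0.06, with p of 0.52 and 0.353.

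Shank1 (ENSRNOG00000019207), a scaffold concentrated in dendritic spines, had the widest relative spread of the 9 within AA and within ADQ. It ran from 7748 through 11204 to 12515 in YNG, from 7422 through 10493 to 15132 in AV rats, from 6566 through 11555 to 20352 in AA rats and from 8619 through 9759 to 16196 in ADQ rats. The coefficient of variation was 20.5% in AV and 31.8% in AA, where the lowest and highest rats, 4036 and 4107, were 3.10-fold apart. It was not called in any comparison. The differences from YNG were -0.0022 for AV, 0.09 for AA and -0.02 for ADQ, with standard errors of 0.14. High Shank1 went with low granule cell markers, with r = -0.56 and rho = -0.42 over 44 rats (permutation p = 0.0077 and 0.006, adjusted p = 0.041 and 0.042), and r = -0.49 without the 2 farthest rats. The r was -0.76 in series b and -0.12 in series a, a difference that was not tested, and series b holds rat 4107, which had the highest Shank1 and the lowest summed granule cell markers. With 6 oligodendrocyte markers Shank1 had r = 0.46 and rho = 0.43 (permutation p = 0.0048 and 0.0056, adjusted p = 0.029 and 0.042). That r was 0.32 without the 2 farthest rats, 0.12 in series a and 0.68 in series b.

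Shank2 (ENSRNOG00000050206) was higher in both senolytic groups than in young rats. Its lowest, median and highest values were 2665, 3134 and 4296 in YNG, and 2438, 3632 and 4088 in AV. They were 2545, 3865 and 4368 in AA, and 3293, 3818 and 4387 in ADQ. All 11 ADQ rats, 10 of 11 AA rats and 9 of 12 AV rats lay above the YNG median, although the ranges overlapped. Shank2 rose by 0.22 ± 0.09 in AA (p = 0.0139, adjusted p = 0.0996) and by 0.24 ± 0.09 in ADQ (p = 0.00696, adjusted p = 0.0665), and AV differed from YNG by 0.07 ± 0.08 (p = 0.382).

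Against vehicle the Shank2 differences were larger in series b than in series a, for ADQ and for AA. ADQ was above AV by 0.17 ± 0.08 (p = 0.0458, adjusted p = 0.527) over all rats. In series b the 6 AV rats had a mean of 3149 ± 476 and the 6 ADQ rats 3954 ± 288, a difference of 0.34 (limma p = 0.00503). In series a the means were 3750 ± 207 in 6 AV rats and 3737 ± 321 in 5 ADQ rats, a difference of -0.0076 (limma p = 0.949). The test between the series gave p = 0.0354, and an adjusted p of 0.961. AA was above AV by 0.15 ± 0.08 over all rats (p = 0.0829). It differed from AV by -0.03 in series a and 0.32 in series b (limma p = 0.781 and 0.00795). For AA against AV the test between the series gave p = 0.0334 and an adjusted p of 0.937. Both comparisons share the AV rats. Against YNG the Shank2 difference of ADQ was 0.22 in series a (p = 0.0765) and 0.26 in series b (p = 0.048), and that of AA was 0.19 and 0.23 (p = 0.115 and 0.0681). AV differed from YNG by 0.22 in series a and -0.08 in series b (limma p = 0.056 and 0.5). For AV against YNG the test between the series gave p = 0.0687. Without AV rat 4567, the lowest at 2438, the difference of ADQ from AV was 0.13 (p = 0.118). Shank2 was also lower in rats with higher microglial markers (r = -0.57 and rho = -0.55 over 44 rats, permutation p = 0.0011 for both, adjusted p = 0.011 and 0.016; r = -0.50 without the 2 farthest rats).

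Shank3 (ENSRNOG00000052296), which links receptor complexes to the cytoskeleton, was not called in any comparison. It ran from 6062 through 7644 to 10309 in YNG, from 6158 through 7813 to 9889 in AV rats, from 6362 through 9318 to 11266 in AA rats and from 6642 through 7757 to 10463 in ADQ rats. Its group mean was highest in AA, where 8 of 11 rats lay above the YNG median, and the groups overlapped. AA differed from YNG by 0.18 ± 0.10 (p = 0.0797, adjusted p = 0.241) and from AV by 0.15 ± 0.09 (p = 0.11). ADQ differed from YNG by 0.04 and from AV by 0.02.

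**Figure D2:**
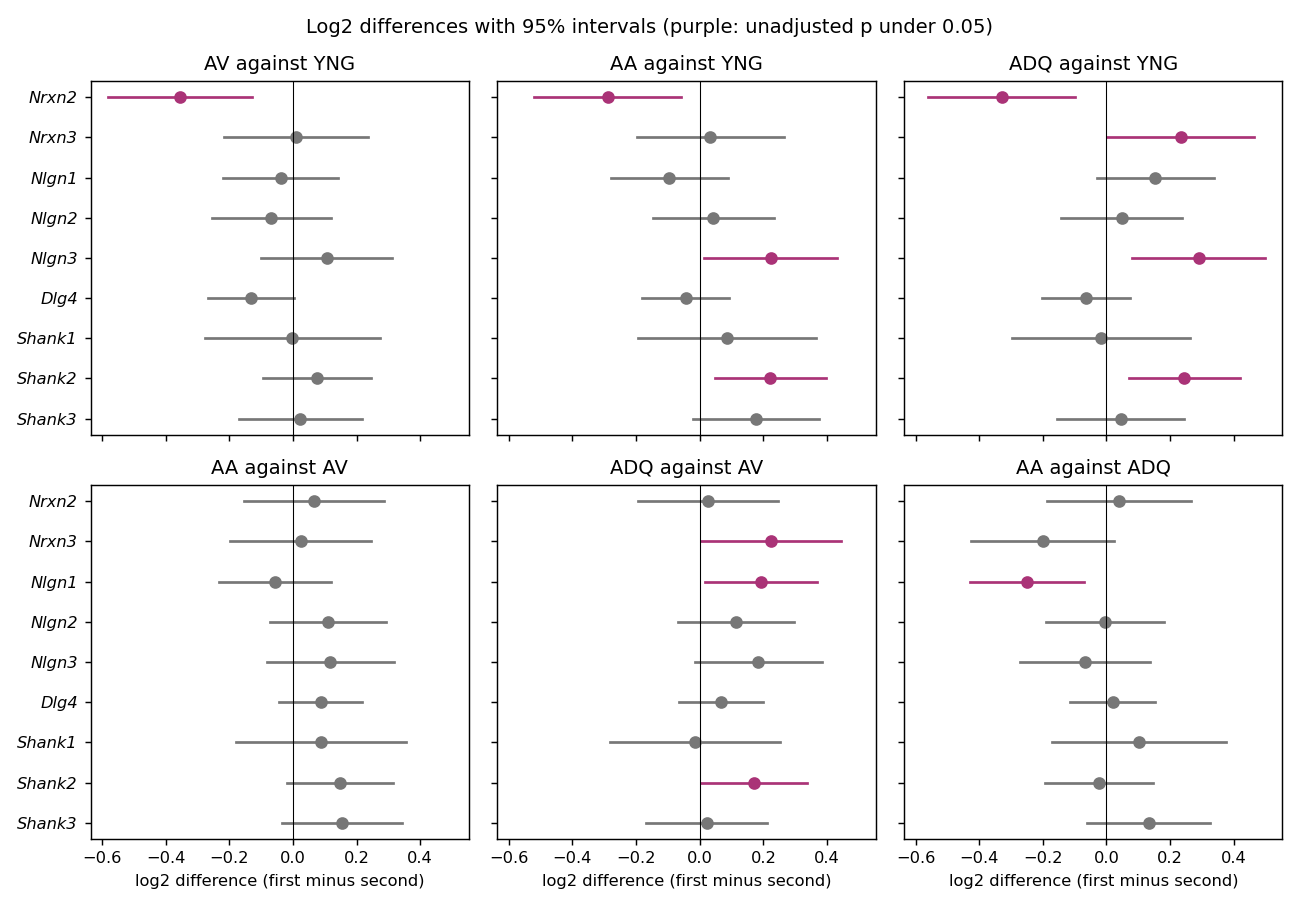
Log2 difference of each gene (horizontal axes, first group minus second) with its 95% interval in the 6 comparisons, in purple where the unadjusted p was under 0.05. Nrxn2 lies left of 0 in each comparison with YNG, at -0.36, -0.29 and -0.33, and Nlgn3 and Shank2 lie right of 0 in AA and ADQ against YNG.

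The counts of called members stand beside the shares of all genes called in the same fit. In AV against YNG 1 of 9 members was called, Nrxn2, lower, where 21.3% of 15598 genes were called, 10.6% higher and 10.7% lower. In AA against YNG 3 of 9 were called, Nlgn3 and Shank2 higher and Nrxn2 lower, against 26.6% of all genes, 12.6% higher and 14.1% lower. In ADQ against YNG 4 of 9 were called, Nrxn3, Nlgn3 and Shank2 higher and Nrxn2 lower, against 28.1%, 13.5% higher and 14.6% lower. These 3 comparisons share the YNG rats, so a low or high YNG value enters all of them. None of the 9 was called in AA against AV, where 4.51% of all genes were called, 1.40% higher and 3.10% lower. In ADQ against AV 3 of 9 were called higher, Nrxn3, Nlgn1 and Shank2, and none lower, against 9.32% of all genes, 3.42% higher and 5.90% lower. AA against ADQ gave 1 call, Nlgn1, lower in AA, against 4.53%, 2.13% higher and 2.40% lower. The median difference of the members was 0.12 between ADQ and AV and 0.09 between AA and AV, 8 of 9 being above 0 each time, where the median of all genes was 0.0081 and 0.00093. Both comparisons rest on the same AV rats, and the members varied together from rat to rat, as given further on. The 9 differences are therefore not independent of each other.

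The count of 3 in ADQ against AV was fragile. It fell to 0 when any of 8 rats was left out, namely AV rats 3989, 4568 and 4571 or ADQ rats 4006, 4007, 4031, 4074 and 4106, and to 1 without AV rats 4567 or 4569 or ADQ rat 4032. In this comparison markers of other cells moved as well. Of 6 oligodendrocyte, 6 microglial and 4 endothelial markers, 4, 4 and 3 were called lower in ADQ than in AV, and 2 of 5 pan-neuronal markers were called higher. Summed oligodendrocyte markers ran from 54750 to 174700 in AV and from 60120 to 78330 in ADQ, and summed endothelial markers from 1932 to 7676 and from 1991 to 2484. None of the oligodendrocyte, microglial or endothelial markers was at 0 in any rat. Against YNG, 5 of 6 oligodendrocyte and 4 of 4 endothelial markers were called higher in AV, and 4 of 7 interneuron markers were called higher in AA. The part of these markers in the results on the 9 genes was not tested.

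**Figure D3:**
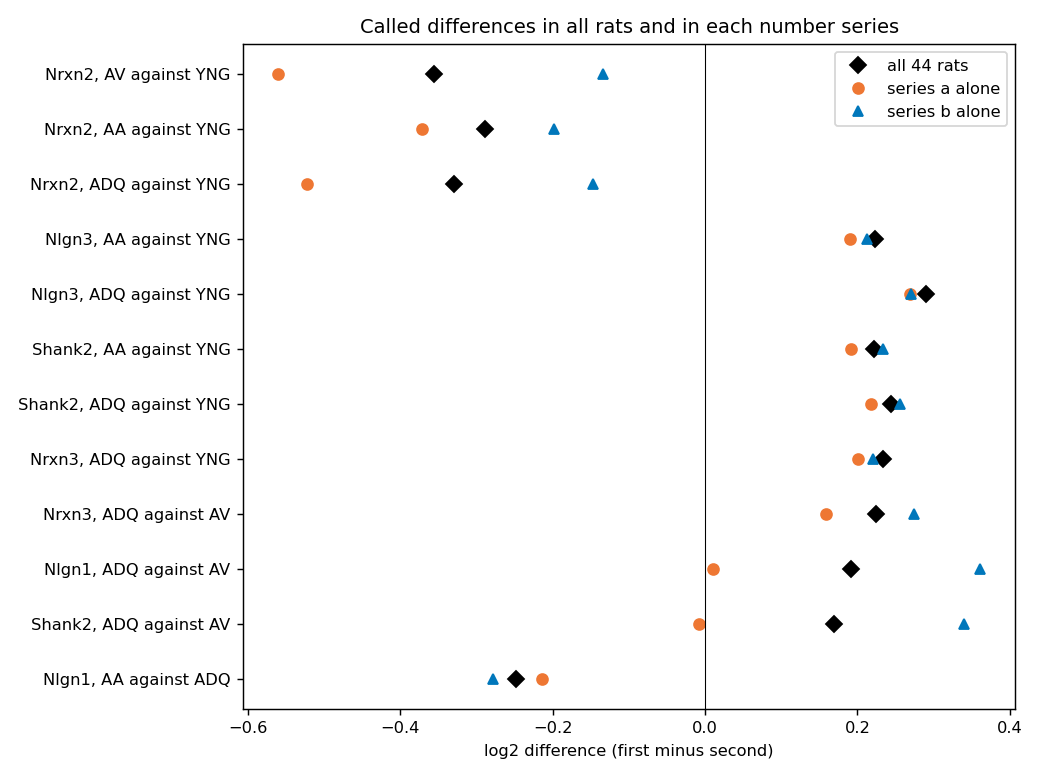
Log2 difference (horizontal axis, first group minus second) for each called gene and comparison, over all 44 rats (diamonds), in series a (circles) and in series b (triangles). Nrxn2 differed more in series a, while Nlgn1 and Shank2 in ADQ against AV lay at 0.01 and -0.0076 in series a and at 0.36 and 0.34 in series b.

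The deposited table gives several rows for each gene without naming the transcript of a row, and the split between rows is an estimate made by the authors' software. Described by size and without a test, the second row of Nrxn2, with 23.1% of its value in YNG rats, was lower in older rats. Its lowest, median and highest values were 1362, 1763 and 2015 in YNG and 487, 1212 and 1519 in AV. They were 707, 1232 and 1849 in AA and 755, 1345 and 1883 in ADQ. All 12 AV rats, 10 of 11 AA rats and 10 of 11 ADQ rats lay below the YNG median, and 8, 6 and 6 of them lay below the lowest YNG rat. The largest row of Nrxn2 was also lower, at 5046 ± 1117 in YNG, 4025 ± 1088 in AV rats, 3988 ± 600 in AA rats and 3891 ± 864 in ADQ rats. The third row did not follow, at 745 ± 194 in YNG and 780 ± 376, 856 ± 275 and 826 ± 194 in AV, AA and ADQ.

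Minor rows of Nrxn3 and Nlgn1 moved apart from their gene totals. The second of 2 rows of Nrxn3 was 171 ± 37.8 in YNG, 119 ± 56.6 in AV rats, 108 ± 53.2 in AA rats and 107 ± 53.4 in ADQ rats, while the first row was 1822 ± 268 in YNG and 2239 ± 323 in ADQ. Its share of the gene was 8.62% in YNG and 4.58% in ADQ. For Nlgn1 the second row was 112 ± 39.5 in YNG, 151 ± 97.5 in AV rats, 170 ± 57.3 in AA rats and 180 ± 57.0 in ADQ rats, and all 11 ADQ rats lay above the YNG median. Taking the largest row alone, Nlgn1 differed by -0.25 in AA against YNG (p = 0.0203), which the summed value did not show at -0.10. Shank2 was carried by a row with 84.0% of its value, which was 2718 ± 477 in YNG, 2912 ± 415 in AV rats, 3093 ± 393 in AA rats and 3375 ± 287 in ADQ rats. Shank3 was spread over 7 rows, the largest with 35.6%, and its second row was 1723 ± 415 in YNG and 2435 ± 908 in AA.

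**Figure D4:**
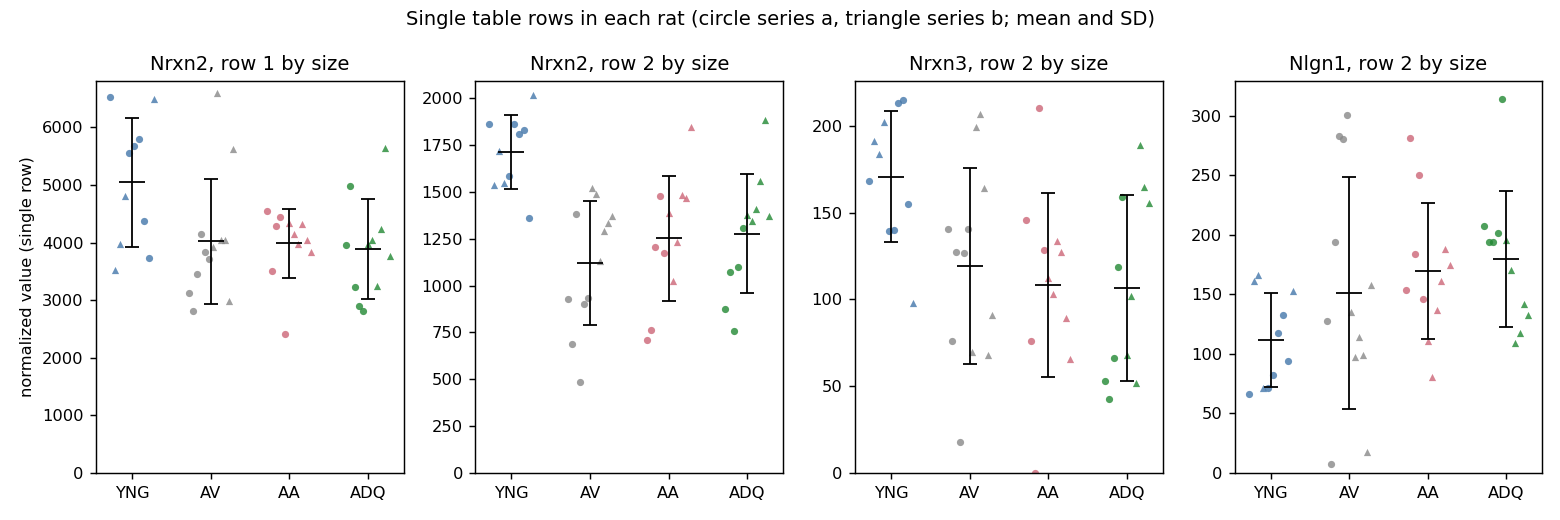
Normalized value of single table rows (vertical axes, from 0) in each rat by group, for the largest and second rows of Nrxn2 and the second rows of Nrxn3 and Nlgn1, with mean and SD. For row 2 of Nrxn2, 8 of 12 AV rats lie below the lowest YNG rat at 1362.

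Rat by rat, with the means of group and series removed, the members tended to rise and fall together. Of 36 pairs, 31 had a Pearson r above 0 and 21 passed a permutation test within group and series after adjustment over the pairs, all of them with r above 0. The highest r was 0.82 between Nlgn2 and Shank3 over 44 rats (rho = 0.81, permutation p = 1e-05 for both, adjusted p = 9e-05), and it was 0.78 without the 2 farthest rats and 0.80 and 0.84 within series a and b. Nlgn3 had r = 0.73 with Shank2 (rho = 0.78) and 0.69 with Shank3 (rho = 0.71), each with a permutation p of 1e-05 and an adjusted p of 9e-05, and 0.78 and 0.60 without the 2 farthest rats. The 2 neurexins had r = 0.36 (rho = 0.25, permutation p = 0.036 and 0.14, adjusted p = 0.059 and 0.22). Of the pairs with Nlgn1, that with Nrxn3 passed, with r = 0.62 (permutation p = 1e-05, adjusted p = 9e-05). Its r with Shank1 was -0.35 (permutation p = 0.067, adjusted p = 0.1), and -0.085 without the 2 farthest rats.

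**Figure D5:**
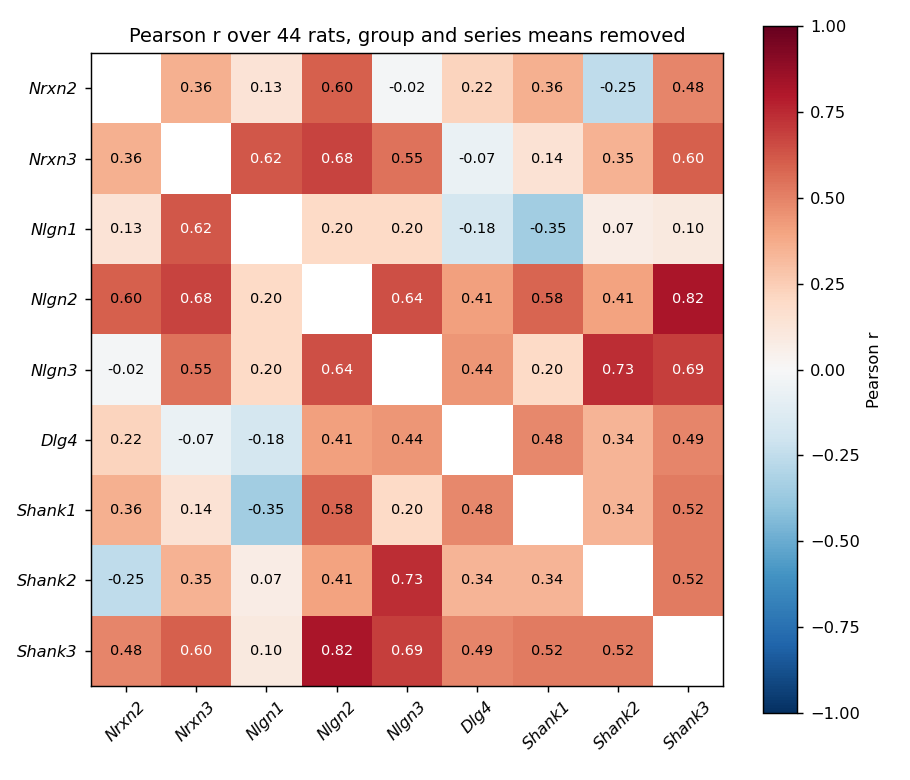
Pearson r for each pair of the 9 genes over 44 rats after removing the means of group and number series (colour, from -1 to 1). Nlgn2 and Shank3 have the highest r, 0.82, and the lowest is -0.35 for Nlgn1 and Shank1.

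Many other genes varied along with them. Of 13695 other genes with a mean of at least 20, 30 had a higher r with Nlgn2 than Shank3 did, and 10 had a higher r with Shank3 than Nlgn2 did. With Nrxn2, 831 genes exceeded the r of 0.60 that Nlgn2 had with it. Of the 36 pairs of members, 12 had r above 0.5. Among the other genes, the share with r above 0.5 ran from 0.767% for Dlg4 to 12.5% for Nlgn3. As a description over the 44 rats, the most similar gene was Scaf1 for Nrxn2 (r = 0.92), Shisa6, an auxiliary subunit of AMPA receptors, for Nrxn3 (r = 0.91), and Gabra2, a subunit of GABA-A receptors, for Nlgn1 (r = 0.84). It was Syngr1, a synaptic vesicle protein, for Nlgn2 (r = 0.91), Zbtb18, a zinc finger repressor, for Nlgn3 (r = 0.91), and Mtmr1 for Dlg4 (r = 0.83). It was Arhgap23 for Shank1 (r = 0.82) and Arhgef11 for Shank2 (r = 0.88).

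Around the 9 genes, 4 lists of partners were read in the same fit. Among 42 tested trans-synaptic partners of the postsynaptic or presynaptic membrane, 2 were called higher and 5 lower in AV rats against YNG. The corresponding counts were 3 and 10 in AA rats and 7 and 6 in ADQ rats. These are 16.7%, 31% and 31% of the list, near the 21.3%, 26.6% and 28.1% of all genes called. C1ql3, a secreted C1q-like protein that binds a postsynaptic adhesion receptor, had the largest difference from YNG of those named. It was 2410 ± 806 in YNG, 1539 ± 645 in AV rats, 1236 ± 292 in AA rats and 1436 ± 311 in ADQ rats. All 11 AA rats lay below the lowest YNG rat for C1ql3. The differences of C1ql3 from YNG were -0.67, -0.94 and -0.71 in AV, AA and ADQ, with adjusted p of 0.0284, 0.00813 and 0.0208. Adgrl3, a latrophilin that binds FLRT and teneurin proteins, was called higher than YNG in every older group, by 0.33 in AV (p = 0.00392), 0.31 in AA (p = 0.00838) and 0.46 ± 0.11 in ADQ (adjusted p = 0.019). Adam22, a receptor for secreted LGI proteins, rose by 0.35 in AA (p = 0.0327, adjusted p = 0.15) and by 0.55 ± 0.16 in ADQ (adjusted p = 0.0312). ADQ was not told apart from AV for either gene (p = 0.243 and 0.0742).

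Excitatory postsynaptic scaffolds were called in both directions. Of 33 tested, 2 were called higher and 5 lower in AV rats against YNG. The corresponding counts were 4 and 5 in AA rats and 8 and 6 in ADQ rats. The shares called were 21.2% and 27.3% in AV and AA, close to the shares of all genes just given, and 42.4% in ADQ, against 28.1%. Grip2, which binds AMPA receptors, rose from 391 ± 150 in YNG to 702 ± 293 in AV and 713 ± 334 in AA, differences of 0.80 and 0.82 with adjusted p of 0.031 and 0.036. In ADQ rats Grip2 was 550 ± 106, a difference of 0.55 (p = 0.0152, adjusted p = 0.0952). Lrrc7, or densin, rose by 0.31 in AV (p = 0.016, adjusted p = 0.147), 0.42 in AA rats and 0.46 in ADQ rats (adjusted p = 0.0494 and 0.0263). Dlgap3, which links PSD-95 to SHANK proteins, was 5039 ± 1213 in YNG and 3583 ± 872 in ADQ, a difference of -0.49 ± 0.14 (adjusted p = 0.0326), with all 11 ADQ rats below the YNG median. Dlgap3 was also called lower in AV by -0.35 (p = 0.0168) and in AA by -0.29 (p = 0.0481), and ADQ differed from AV by -0.14 (p = 0.299).

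Presynaptic partners of neurexins and active zone genes were called mostly in ADQ rats. Of 19 tested, 6 were called higher and none lower, both for ADQ against YNG and for ADQ against AV, and AV and AA against YNG had 0 and 1 higher and 1 and 1 lower. The percentage called was 31.6% in each ADQ comparison, against 28.1% of all genes in the first and 9.32% in the second. Rims1, a scaffold of the active zone, was 2080 ± 614 in YNG, 2377 ± 501 in AV rats, 2384 ± 392 in AA rats and 2912 ± 431 in ADQ rats. Its difference in ADQ was 0.53 from YNG (adjusted p = 0.0193) and 0.31 from AV (p = 0.0158, adjusted p = 0.432). Pclo, a giant scaffold of the same zone, differed in ADQ from YNG by 0.61 (adjusted p = 0.0223) and from AV by 0.30 (p = 0.052). Lin7c, part of a complex that binds neurexins, rose in ADQ by 0.51 against YNG (p = 0.0099, adjusted p = 0.0773) and 0.40 against AV (p = 0.0312, adjusted p = 0.489).

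Of 8 tested inhibitory postsynaptic scaffolds, which anchor Nlgn2 and GABA-A receptors, 1 was called higher and 1 lower in AV rats against YNG. The corresponding counts were 1 and 2 in AA rats and 0 and 1 in ADQ rats. With so few genes, the shares of 25%, 37.5% and 12.5% stand beside 21.3%, 26.6% and 28.1% of all genes. Insyn2a was 77.3 ± 12.2 in YNG, 102 ± 20.9 in AV rats, 111 ± 32.2 in AA rats and 92.0 ± 14.8 in ADQ rats, and it rose by 0.39 in AV (p = 0.00434, adjusted p = 0.091) and 0.49 in AA (adjusted p = 0.0391). Insyn1 fell in every older group, with differences of -0.23, -0.25 and -0.19 in AV, AA and ADQ (p = 0.00993, 0.0054 and 0.0321, adjusted p = 0.121, 0.068 and 0.14).

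In the comparisons of older groups, the partner lists were called as follows. AA against AV gave 1 higher call among the trans-synaptic partners and none in the other 3 lists, and ADQ against AV gave 2 higher and 1 lower trans-synaptic partners, 2 higher and no lower excitatory scaffolds, and no inhibitory scaffold. In AA against ADQ, 4 trans-synaptic partners, 2 excitatory scaffolds, 2 inhibitory scaffolds and 4 presynaptic genes were called lower and none higher. These are 9.52%, 6.06%, 25% and 21.1% of the lists, where 4.53% of all genes were called and 2.40% were called lower. None of the list genes passed the adjusted threshold in these 3 comparisons.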

How the data were processed

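RNA of the dentate gyrus was selected for poly(A), and libraries were made with an Ion kit. Per the labels and the submitters' processing notes, the authors aligned reads to rn6 with STAR 2.5.3a in Partek and used DESeq2; the annotation is not given in the sources used here. As deposited by the authors, the values are signal: estimated reads per row divided by a median-ratio size factor per library. Whole reads could not be read back, since between 79.2% and 84.2% of the values below 20 reads lay within 0.05 of a whole read in genes with 1 row, so no count model was used. Labels give only the age, so each rat's group was read by name from the authors' table of attributes.

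The 24694 rows were summed by gene, and limma 3.58.1 (R 4.3.3), with a trend in the prior variance, was fitted in 1 model of 4 groups to log2(value + 1) of genes with a mean of at least 5. Differences were tested two-sided. Correlations used residuals from the means of group and series with 100000 resamples. The procedure was tested on simulated data. Replicates were rats, 1 library each, and fewer reads widen the error of low genes. The 9 genes, lists and markers were chosen with earlier results of these data known. Genes named were the 9 in every comparison, the 3 with the smallest p in each partner list, and for each member the gene with the highest r, apart from some that are not reported here. Alternatives covered pseudocount, filter, scaling, weights, groups fitted, number series, rows summed and leaving out each rat. Dropping the 2 rats with the highest CA1 markers was chosen after seeing the data.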

Additional observations from a re-analysis of the deposited data

Results flagged for a closer look

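In the 10 YNG rats, 2 single values lay far from the others by Dixon's ratio of the gap to the range, a criterion that chance meets in about 1 group of 20. Shank1 in rat V10 was 7748, the lowest, with a ratio of 0.479, and the next lowest YNG rat was at 10031. Shank3 in rat V11 was 10309, the highest, with a ratio of 0.514, and the next highest was at 8128. Groups of more than 10 rats were not examined in this way. Without rat V11 the difference of AA from YNG in Shank3 was 0.22 (p = 0.0266).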

How the results depend on the processing

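When the 12 called differences were each recomputed under the 12 alternatives other than leaving out 1 rat, 115 of 144 values kept their direction and their side of the threshold, 28 kept the direction and lost the call, and 1 turned. Members that passed the adjusted threshold against YNG, as none did in the reported fit, were with array weights Nrxn2, Nlgn3 and Shank2 in AV (adjusted p from 0.000252 to 0.0232) and AA (0.000731 to 0.00201), and these with Nrxn3 and Nlgn1 in ADQ (6.05e-05 to 0.0341). They were Shank2 in AA with library totals (0.0331), Nlgn3 and Shank2 in ADQ with library totals, the largest row or pairs of groups alone (0.0259 to 0.0481), and Nrxn2 in AV and ADQ with number series as a covariate (0.0391 and 0.0336) or series a alone (0.0101 and 0.0284), and in ADQ without rats 4107 and 3989 (0.0467). Members also passed in 9 of 44 fits that left out 1 rat (AA 3985, ADQ 4106, AV 3989, 4567 and 4572, YNG V5, V6, V10 and V11). The split of all called genes depended on the scaling, at 1651 higher and 1675 lower in AV against YNG as reported, 2011 and 1284 with upper quartile scaling, and 2819 and 655 with library totals. Below, AV-YNG stands for AV minus YNG and likewise for the other pairs, values are log2 differences, counts are of 9 members, and the cause of each change was not tested. Another pseudocount and other filters turned no sign and moved no count. With upper quartile scaling, the sign turned for Shank1 0.030 (AV-YNG), Shank1 0.014 (ADQ-YNG), and the count was 1 (ADQ-AV). With scaling to library totals, the sign turned for Nlgn1 0.065, Nlgn2 0.035, Shank1 0.10 (AV-YNG), Nlgn1 0.054, Dlg4 0.11 (AA-YNG), Dlg4 0.077, Shank1 0.12 (ADQ-YNG), Shank1 0.023 (ADQ-AV), Nlgn2 0.0029 (AA-ADQ). In that scaling Shank3 was called in place of Nrxn2 (AA-YNG), and Nlgn1 in place of Nrxn2 (ADQ-YNG). The call of Shank2 was lost (ADQ-AV). With array weights, the sign turned for Nlgn2 0.0042, Shank1 0.028 (AV-YNG), Dlg4 0.031, Shank1 -0.036 (AA-YNG), Nrxn3 -0.052, Nlgn1 0.00067, Shank1 -0.064 (AA-AV), Shank3 -0.050 (ADQ-AV), and the count was 3 (AV-YNG) and 2 (AA-ADQ). With these weights Shank3 (AA-YNG) and Nlgn1 (ADQ-YNG) were called as well, and the call of Shank2 was lost (ADQ-AV). With each pair of groups fitted alone, the count was 1 (ADQ-AV) and 2 (AA-ADQ). With number series as a covariate, the sign turned for Shank1 0.017 (AV-YNG), Shank1 0.011 (ADQ-YNG), and the count was 2 (AV-YNG), 3 (ADQ-YNG) and 2 (ADQ-AV), the last pair by the loss of Nrxn3. In series a alone, the sign turned for Nlgn1 0.092, Shank1 0.22 (AV-YNG), Nlgn2 -0.082 (ADQ-YNG), Nlgn3 -0.042, Shank2 -0.033 (AA-AV), Shank2 -0.0076, Shank3 -0.12 (ADQ-AV), Nlgn2 0.088 (AA-ADQ), and the count was 1 (ADQ-YNG) and 0 (ADQ-AV). In that series Shank1 0.29 and Shank3 0.31 were called in place of Nlgn3 and Shank2 (AA-YNG). Likewise Shank1 0.33 was called in place of Nlgn1 (AA-ADQ). In series b alone, the sign turned for Nrxn3 -0.054, Nlgn3 -0.050, Shank2 -0.084, Shank3 -0.13 (AV-YNG), Nrxn3 -0.11, Dlg4 0.012, Shank1 -0.088 (AA-YNG), Nrxn2 -0.065, Nrxn3 -0.057, Nlgn1 0.083 (AA-AV), Nrxn2 -0.013, Shank1 0.22 (ADQ-AV), Nrxn2 -0.052, Shank1 -0.085 (AA-ADQ), and the count was 0 (AV-YNG), 0 (AA-YNG), 1 (ADQ-YNG), 1 (AA-AV) and 2 (AA-ADQ). In that series Nlgn3 was called as well (ADQ-AV). With the largest row of each gene, the sign turned for Nlgn2 0.012, Shank3 -0.0095 (AV-YNG), Shank3 -0.028 (ADQ-YNG), Nrxn2 -0.038, Shank3 -0.018 (ADQ-AV). With that row Nlgn1 was called as well (AA-YNG), and Nlgn3 was called in place of Nlgn1 (ADQ-AV). Without rats 4107 and 3989, the sign turned for Shank1 0.0057 (AV-YNG), Nrxn2 -0.0092, Nrxn3 -0.053, Shank1 -0.0027 (AA-AV), Nrxn2 -0.030, Shank3 -0.0042 (ADQ-AV), and the count was 1 (ADQ-AV).

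Leaving out 1 rat at a time, the count of members called ran over 1 to 2 (AV-YNG), 2 to 4 (AA-YNG), 3 to 5 (ADQ-YNG), 0 to 1 (AA-AV), 0 to 4 (ADQ-AV) and 1 to 2 (AA-ADQ). It became 2 (AV-YNG) without AV rats 3890 or 4571, ADQ rats 4007 or 4106 or YNG rats V1, V2, V4, V10 or V12, 1 (AA-AV) without AA rats 3985 or 4036 or AV rat 4011, and 2 (AA-ADQ) without AA rat 3988 or AV rat 3989. The differences whose sign or side of the threshold changed in these fits ran over Nrxn3 -0.031 to 0.10 (AV-YNG), Dlg4 -0.16 to -0.11 (AV-YNG), Shank1 -0.056 to 0.047 (AV-YNG), Shank3 -0.015 to 0.071 (AV-YNG), Nrxn3 -0.0042 to 0.075 (AA-YNG), Nlgn2 -0.0046 to 0.071 (AA-YNG), Nlgn3 0.17 to 0.27 (AA-YNG), Shank3 0.14 to 0.22 (AA-YNG), Nrxn3 0.21 to 0.28 (ADQ-YNG), Nlgn1 0.12 to 0.20 (ADQ-YNG), Shank1 -0.077 to 0.014 (ADQ-YNG), Nrxn3 -0.065 to 0.066 (AA-AV), Shank2 0.10 to 0.20 (AA-AV), Shank3 0.12 to 0.20 (AA-AV), Nrxn2 -0.030 to 0.079 (ADQ-AV), Nrxn3 0.14 to 0.26 (ADQ-AV), Nlgn1 0.16 to 0.24 (ADQ-AV), Nlgn3 0.14 to 0.22 (ADQ-AV), Shank1 -0.075 to 0.030 (ADQ-AV), Shank2 0.13 to 0.19 (ADQ-AV), Shank3 -0.019 to 0.053 (ADQ-AV), Nrxn3 -0.24 to -0.16 (AA-ADQ), Nlgn2 -0.040 to 0.037 (AA-ADQ), Dlg4 -0.0099 to 0.049 (AA-ADQ), Shank2 -0.046 to 0.034 (AA-ADQ).

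No paired analysis was possible because the rats' names give no number shared between groups. Depth was read back only approximately, and the part of counting error in the spread between rats was not tested.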
